A study of Mus musculus with 8 samples.

Results

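The steroidogenic targets of NR5A1 are genes that carry cholesterol into the cell and turn it into steroid hormones in the gonad and the adrenal cortex. The set of 10 was taken by symbol from the deposited count table (Star, Cyp11a1, Cyp17a1, Hsd3b1, Hsd3b6, Cyp19a1, Cyp21a1, Scarb1, Srd5a1 and Fdx1), and all 10 were found among its 55523 entries. The question put to them was whether gonadotropes, which express Nr5a1 but make gonadotropins and not steroids, hold their transcripts at all. The study used Ad4BP-BAC-EGFP mice, sorted the EGFP-positive cells of their pituitary and sequenced the RNA. In these mice a bacterial artificial chromosome carrying the Nr5a1 gene region (Ad4BP is an older name of NR5A1) drives EGFP. Every sample carried this transgene and no agent is described for any sample. The labels set the groups apart by sex alone, with 4 female and 4 male samples. The labels used here give no age, and do not say whether replicates came from separate or pooled animals, so p-values measure only the spread between these samples, which may be technical. Male replicate 1 was left out of the study's comparison and its values are given apart, which leaves 7 samples.

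NR5A1 is a nuclear receptor that binds DNA as a monomer and is required for the development of the adrenal gland and the gonads. In their steroid-producing cells it switches on nearly the whole pathway, from the capture of lipoprotein cholesterol (Scarb1) and its transfer into mitochondria (Star) to the cytochrome P450 enzymes and dehydrogenases that shape the steroid. In the pituitary it is found in gonadotropes, where its known targets are the genes of the gonadotropin subunits and of the receptor for gonadotropin-releasing hormone.

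The recognition motif of NR5A1 was searched for from 250 bases before to 50 bases after each start site in the RefSeq promoter table (build GRCm38.p6), as the letters CAAGGTCA or CAAGGCCA on either strand. Entries matched 6 of the 10 genes, with 9 promoters between them, and none was held for Star, Cyp17a1, Cyp21a1 and Scarb1. At least 1 motif was present in 1287 of the 32851 promoters of the table, or 3.92%, and in 1 of the 6 genes, Cyp19a1. Of 5 gonadotrope genes searched in the same way, 1 (Lhb) held the motif, and Cga, Fshb, Gnrhr and Nr0b1 did not. The upstream stretches below show the motif in its place (Lhb) and steroidogenic genes that were read in these cells (Fdx1, Srd5a1) and that were not (Hsd3b1, Hsd3b6). Each is 250 bases long, ends at the base before the start site and reads 5′ to 3′ along the gene, with the motif in capitals.
Lhb: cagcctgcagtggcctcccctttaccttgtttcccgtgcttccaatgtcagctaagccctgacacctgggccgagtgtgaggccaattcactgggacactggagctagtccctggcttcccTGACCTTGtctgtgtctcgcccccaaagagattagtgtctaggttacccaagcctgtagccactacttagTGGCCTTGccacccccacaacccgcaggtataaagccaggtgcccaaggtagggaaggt
Fdx1: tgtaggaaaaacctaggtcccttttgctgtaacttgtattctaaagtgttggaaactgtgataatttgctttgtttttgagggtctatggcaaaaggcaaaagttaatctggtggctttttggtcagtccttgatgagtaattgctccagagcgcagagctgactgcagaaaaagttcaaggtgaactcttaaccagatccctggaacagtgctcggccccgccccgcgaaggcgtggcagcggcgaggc
Srd5a1: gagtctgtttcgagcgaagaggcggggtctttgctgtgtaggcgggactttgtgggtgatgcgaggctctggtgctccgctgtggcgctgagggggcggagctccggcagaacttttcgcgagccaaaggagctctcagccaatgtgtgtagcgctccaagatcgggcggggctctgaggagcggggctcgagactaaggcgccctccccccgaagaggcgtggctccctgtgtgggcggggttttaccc
Hsd3b1: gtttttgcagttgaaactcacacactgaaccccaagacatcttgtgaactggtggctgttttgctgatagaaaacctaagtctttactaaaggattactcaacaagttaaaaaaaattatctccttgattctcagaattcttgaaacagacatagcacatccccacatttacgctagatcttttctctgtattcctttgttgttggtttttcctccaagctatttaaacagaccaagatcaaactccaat
Hsd3b6: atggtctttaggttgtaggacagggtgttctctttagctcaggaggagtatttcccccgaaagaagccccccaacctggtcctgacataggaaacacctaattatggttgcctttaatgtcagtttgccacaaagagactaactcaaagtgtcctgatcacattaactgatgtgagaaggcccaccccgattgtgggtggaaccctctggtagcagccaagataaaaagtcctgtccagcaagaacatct
Their positions are chr7:45420696-45420945 on the plus strand for Lhb, and on the minus strand chr9:51963603-51963852 for Fdx1, chr13:69611464-69611713 for Srd5a1, chr3:98859795-98860044 for Hsd3b1 and chr3:98814444-98814693 for Hsd3b6. Lhb, which encodes the beta subunit of luteinizing hormone, held CAAGGTCA at -129 to -122 and CAAGGCCA at -59 to -52, both on the opposite strand. The 4 steroidogenic stretches held neither form. The stretch of Srd5a1 was rich in GC (64.8%, with 20 CpG dinucleotides), that of Fdx1 held 48.0% GC and 8 CpG, and those of Hsd3b1 (36.4%, 1 CpG) and Hsd3b6 (47.2%, 2 CpG) were poor in CpG, against medians of 52.4% and 6 over all promoters of the table. Hsd3b1 and Hsd3b6 are neighbouring copies on chromosome 3, and their upstream stretches were identical at 63.8% of 213 aligned bases.

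The single match among the steroidogenic genes lay downstream of the start site at position 54268164 of chromosome 9, the most distal of 3 Cyp19a1 promoters in the table, at +19 to +26 on the opposite strand.
Cyp19a1: ggatgggatgcTGGCCTTGgctgtaggggg
These 30 bases read 5′ to 3′ along the gene, with the motif in capitals. With the first letter dropped (AAGGTCA or AAGGCCA), a search added after the data were seen, 10.6% of all promoters matched and Cyp19a1 was again the 1 gene of the 6, while Gnrhr joined Lhb among the 5 gonadotrope genes (AAGGCCA at -167 to -161). A match does not show that the site is bound. The absence of these exact letters from so short a window says nothing about binding elsewhere, or within it at sites with other letters.

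The samples held from 18774578 to 31302588 counts, so that 3 counts, taken as the floor, stood for between 0.0921 and 0.146 CPM (a gene's counts per 1000000 counts of the sample, scaled by edgeR's TMM factors). The genes that define gonadotropes were abundant, with Cga at 13359 to 50707 CPM and Lhb at 4139 to 9610 CPM in the 7 samples. Hormone genes of other pituitary cells were also high, with Gh at 12394 to 142244 CPM and Prl at 4671 to 18125 CPM. The part of RNA from other pituitary cells in the levels below was not tested. Nr5a1 was read at 584 to 1266 CPM in the 7 samples and at 16.3 CPM (373 counts) in male replicate 1.

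A gene was called detected at 1 CPM or more in each of the 7 samples, at the floor at 3 counts or fewer in each, and low between these limits. By this rule 4 of the 10 genes were detected (Scarb1, Fdx1, Star and Srd5a1), 2 were low (Cyp11a1 and Cyp17a1) and 4 were at the floor (Hsd3b1, Hsd3b6, Cyp19a1 and Cyp21a1). Of all entries 25.5% were detected, and of protein-coding entries 55.1%. The 4 detected genes serve cholesterol entry, electron supply and the reduction of testosterone, whereas the 6 others are the enzymes that build progestins, androgens, oestrogens and corticosteroids from cholesterol. In RNA from many cells, fewer cells that hold a transcript and less of it per cell cannot be told apart.

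**Figure D1:**
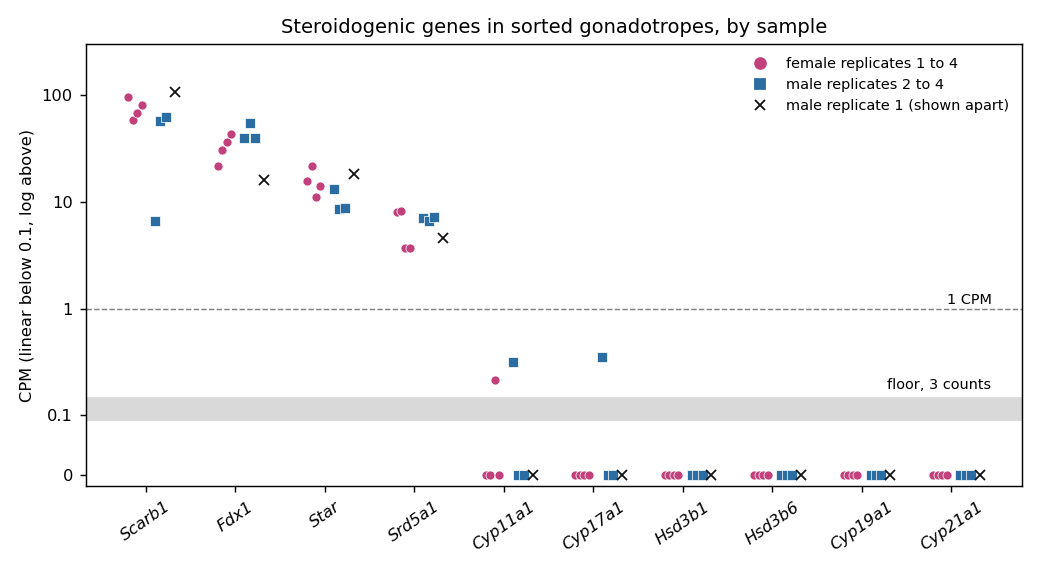
CPM of the 10 steroidogenic genes in each sample (linear below 0.1 CPM, logarithmic above), with female replicates as circles, male replicates 2 to 4 as squares and male replicate 1 as crosses; the dashed line marks 1 CPM and the grey band the level of 3 counts in a sample. Scarb1, Fdx1, Star and Srd5a1 lie above 1 CPM in every sample, Cyp11a1 and Cyp17a1 are above 0 in 2 samples and 1 sample, and the 4 others are at 0 in all 8.

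Scarb1 (ENSMUSG00000037936.15, chromosome 5, 125277087 to 125341094, minus strand) encodes the receptor that takes up cholesterol esters from high-density lipoprotein, and it is used in many tissues besides steroidogenic ones. It had 2245, 1198, 2212 and 1865 counts in female replicates 1 to 4, which is 96.0, 58.4, 67.9 and 80.6 CPM. In male replicates 2 to 4 it had 168, 1506 and 1381 counts, or 6.62, 56.9 and 62.7 CPM, and in male replicate 1 it had 105.6 CPM. Male replicate 2 stood apart, at 10.1% of the median of the 6 other samples. Drops of this kind in 1 library were not particular to Scarb1. Of the 7505 entries with a median of at least 20 CPM, between 54 and 94 in each of the 7 samples (67 in male replicate 2, or 0.893%) lay under 0.2 times the lowest of the other samples. The transcript Gm42633, which lies within Scarb1 on the same strand, had 51 counts in male replicate 2 and 26 to 140 in the others. Whether the 6.62 CPM stands for less Scarb1 RNA or for reads lost in counting was not tested. The sexes overlapped in CPM.

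Star (ENSMUSG00000031574.8, chromosome 8, 25806555 to 25815982, plus strand) encodes the protein that moves cholesterol to the inner mitochondrial membrane, the rate-limiting step of acute steroid synthesis. Its level was 15.7, 21.8, 11.1 and 14.1 CPM in female replicates 1 to 4, from 367, 446, 361 and 326 counts. Male replicates 2 to 4 held 13.2, 8.53 and 8.67 CPM, from 335, 226 and 191 counts, and male replicate 1 held 18.1 CPM. Each of the 8 samples thus held at least 191 Star counts, far above the floor. The highest value was in a female and the lowest in a male, and the sexes overlapped through male replicate 2 and female replicate 3.

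Fdx1 (ENSMUSG00000032051.9, chromosome 9, 51943306 to 51963556, minus strand) encodes ferredoxin, which passes electrons to mitochondrial P450 enzymes and also serves cells that make no steroid. Female replicates 1 to 4 had 21.6, 30.6, 36.4 and 43.1 CPM, from 504, 627, 1187 and 997 counts. Male replicates 2 to 4 had 39.4, 54.5 and 39.5 CPM, from 999, 1444 and 870 counts, and the lowest of all samples was male replicate 1, with 15.9 CPM. Male replicates 2 to 4 were within or above the female range.

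Srd5a1 (ENSMUSG00000021594.11, chromosome 13, 69573449 to 69611442, minus strand) encodes the steroid reductase that turns testosterone into dihydrotestosterone and also acts on progesterone. Its counts were 189, 168, 121 and 85 in female replicates 1 to 4 and 179, 176 and 160 in male replicates 2 to 4. Female replicates 1 and 2 had 8.08 and 8.20 CPM and female replicates 3 and 4 had 3.71 and 3.68 CPM, so that the 3 males, with 7.05, 6.64 and 7.27 CPM, lay between these pairs. Male replicate 1 had 4.58 CPM. A transcript that overlaps the start of Srd5a1 on the same strand, Gm17108, had 0 to 9 counts in the 8 samples.

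Cyp11a1 (ENSMUSG00000032323.13, chromosome 9, 58006411 to 58027023, plus strand) encodes the side-chain cleavage enzyme, which makes pregnenolone from cholesterol and so commits it to steroid synthesis. It had 7 counts in female replicate 3 (0.215 CPM), 8 counts in male replicate 2 (0.315 CPM) and 0 in the 6 other samples. Its 15 counts over the 8 samples amount to 0.0761 CPM (of the summed counts, without TMM scaling, as for every value over the 8 samples), with an exact 95% Poisson interval of 0.0426 to 0.125 CPM that covers counting error only. Female replicate 3 also held the only counts of the Leydig marker Insl3 (16 counts, 0.491 CPM) and of Hsd3b3 (23 counts), whose part in its Cyp11a1 counts was not tested. A long non-coding transcript on the same strand, Gm17322 (chromosome 9, 57998041 to 58007451), overlaps its first bases and had 61 to 185 counts in the 8 samples. The RefSeq table places 1 start of Cyp11a1 at 57998024, beside the start of Gm17322, so whether the reads of Gm17322 belong to Cyp11a1 depends on the annotation. With the counts of such loci summed, 5 of the 10 genes met the detection rule, the locus of Cyp11a1 being the fifth.

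Cyp17a1 (ENSMUSG00000003555.8, chromosome 19, 46667165 to 46673172, minus strand) encodes the hydroxylase and lyase that opens the way to androgens. It had 9 counts in male replicate 2 (0.355 CPM) and 0 in the 7 other samples, which is 0.0456 CPM over the 8 samples, with an exact 95% Poisson interval of 0.0209 to 0.0866 CPM for counting error only. Male replicate 2 therefore held both a Cyp11a1 and a Cyp17a1 signal. Markers of Leydig cells, which express both genes, were at 0 in that sample (Insl3 and Lhcgr), while it held 12 counts of the adrenal marker Mrap (0.473 CPM) and 7 of Amh (0.276 CPM). Their part in the signal was not tested.

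Hsd3b1 and Hsd3b6, the dehydrogenases that turn pregnenolone into progesterone, had 0 counts in all 8 samples. Cyp19a1, the aromatase that makes oestrogens, and Cyp21a1, the adrenal hydroxylase that leads to corticosterone and aldosterone, also had 0 counts in all 8. The annotation places Hsd3b1 at 98852194 to 98859794 and Hsd3b6 at 98805504 to 98814443 of chromosome 3, Cyp19a1 at 54165937 to 54268110 of chromosome 9 and Cyp21a1 at 34801348 to 34804561 of chromosome 17, each on the minus strand. The 8 samples held 197205923 counts in all. At a count of 0, the exact Poisson interval used above reaches up to 3.69 counts, or 0.0187 CPM, for counting error only. Among protein-coding entries 21.7% had 0 counts in all 8 samples.

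Near-identical copies can hide reads from a count table, so the copies were examined. The longest transcripts of Hsd3b1 and Hsd3b6 were identical at 85.8% of 1621 aligned bases. Of the other Hsd3b genes in the cluster on chromosome 3, Hsd3b2 had 2 counts, Hsd3b4 had 1, Hsd3b5 had 3 and Hsd3b3 had 23 over the 8 samples, all 23 in 1 sample. Cyp21a1 was identical at 97.5% of 1382 aligned bases to the pseudogene Cyp21a2-ps, which also had 0 counts, and reads that match both equally can be lost from both. The 0 of Cyp21a1 is therefore less certain than those of Cyp19a1 and Hsd3b1.

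Levels of different genes were compared as CPM per kilobase of exon (RPKM). Fdx1 averaged 12.2 ± 3.30 RPKM (SD, n = 7), Scarb1 7.21 ± 3.27, Star 3.23 ± 1.12 and Srd5a1 2.19 ± 0.657. Neighbours in this order overlapped in their ranges, with Fdx1 above Scarb1 in 6 of 7 samples, Scarb1 above Star in 6 of 7 and Star above Srd5a1 in 5 of 7. Without male replicate 2, Scarb1 averaged 8.28 ± 1.79 RPKM and stood above Star in 6 of 6 samples with no overlap. The order of Fdx1 and Scarb1 depends on the length used, since over the longest transcript of 3093 bases instead of all 8500 exonic bases Scarb1 averaged 19.8 RPKM. Among the 31394 entries with a count and a length, Fdx1 ranked at percentile 87.7, Scarb1 at 81.3, Star at 69.0 and Srd5a1 at 63.1.

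Set beside Nr5a1 itself, at 216 ± 56.6 RPKM (SD, n = 7), the detected genes were modest. The mean RPKM of Nr5a1 was 17.7 times that of Fdx1, 30.0 times that of Scarb1, 66.9 times that of Star and 98.7 times that of Srd5a1. These ratios depend on the length used. Over longest transcripts Nr5a1 averaged 306 RPKM, Scarb1 19.8 and Fdx1 13.7, so that Scarb1 came nearer to Nr5a1 than Fdx1 did. The ratio to Scarb1 ran from 18.0 to 231 between the 7 samples. In single samples the ratio to Star lay between 42.7 and 111. In male replicate 1, where Nr5a1 was at 3.84 RPKM, that ratio was 0.874, yet Star was at 4.39 RPKM there, inside the range of the 7 other samples (2.07 to 5.29). Nr5a1 was 1 of 105 entries of male replicate 1 with a drop of the kind described for Scarb1, and whether its low value stands for less RNA or for reads lost in counting was not tested. Scarb1 in male replicate 1, at 105.6 CPM, was above its highest value in the 7 samples, while Fdx1 was below its lowest.

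**Figure D2:**
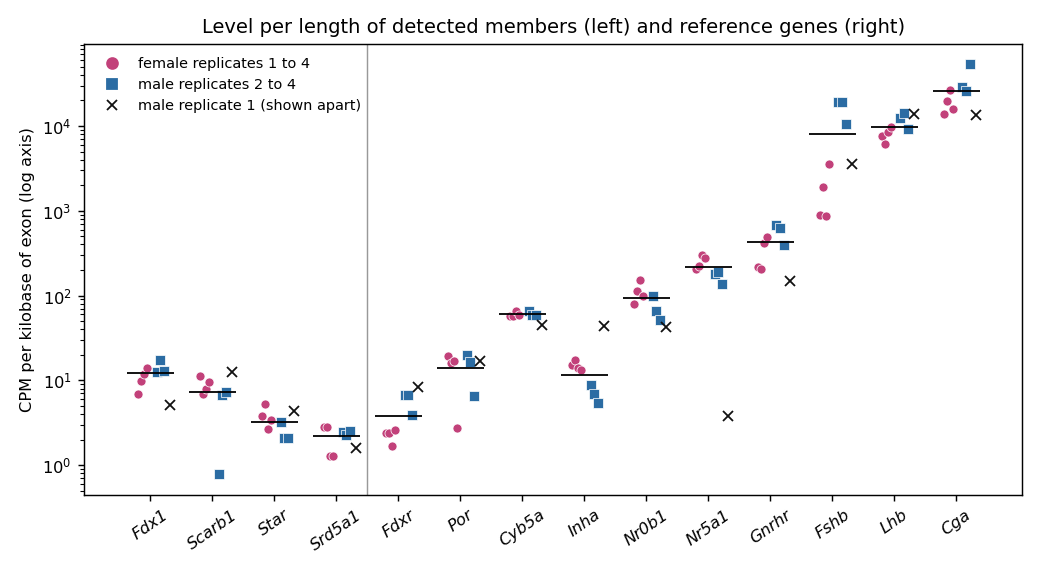
CPM per kilobase of exon (logarithmic axis) of the 4 detected steroidogenic genes, left of the line, and of reference genes, right of it; points are samples, crosses male replicate 1 and black bars the mean of the 7 other samples. The means run from 2.19 for Srd5a1 to 12.2 for Fdx1, below Nr5a1 at 216 and Lhb at 9663.

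All 6 genes of the gonadotrope list (Cga, Fshb, Lhb, Gnrhr, Nr5a1 and Nr0b1) were detected. Gnrhr, the receptor for gonadotropin-releasing hormone, averaged 432 ± 184 RPKM and Nr0b1, a repressor that partners NR5A1, 94.8 ± 33.8 RPKM (SD, n = 7). Star averaged 3.23 RPKM on the same scale.

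Of 10 gonadal and adrenal NR5A1 targets that are no steroid enzymes, 3 were detected (Sox9, Nr0b1 and Inha), 5 were low and 2 were at the floor. Mc2r, the ACTH receptor of the adrenal cortex, and Fshr, the FSH receptor of granulosa and Sertoli cells, had 0 counts in all 8 samples. Insl3, a Leydig cell hormone, was found in female replicate 3 alone (0.491 CPM), Lhcgr, the LH receptor, in female replicate 1 alone (1.07 CPM), and Amh, a Sertoli and granulosa cell hormone, in male replicate 2 alone (0.276 CPM). The 4 markers of adrenal cortex together (Mc2r, Mrap, Cyp11b1 and Cyp11b2) summed to between 0 and 1.30 CPM in females and 0 and 0.473 CPM in male replicates 2 to 4. In male replicate 1 they summed to 0.699 CPM, and all of it was from Mrap in each sample. The 2 Leydig markers summed to between 0 and 1.07 CPM in females and were at 0 in males. The 3 granulosa and Sertoli markers (Fshr, Amh and Amhr2) summed to at most 0.927 CPM in females and 0.276 CPM in male replicates 2 to 4, and to 0.437 CPM in male replicate 1.

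Genes of unrelated organs were read for comparison. Of 15 such genes 0 were detected (1 without female replicate 3), 6 were low and 9 (Alb, Serpina1a, Ins1, Ins2, Prm1, Prm2, Zp3, Aqp2 and Lalba) had 0 counts in all 8 samples. The surfactant gene Sftpc had 8 counts in 1 sample, much as Cyp17a1 had 9. The highest of the list was the kidney gene Umod, at 21.5 CPM in female replicate 1 and 0 CPM in male replicates 3 and 4. In that 1 sample Umod stood above Star (15.7 CPM) and Srd5a1 (8.08 CPM), but unlike them it was not present in every sample. Cyp11a1 and Cyp17a1 were read at levels within the range of these genes, but so was Srd5a1 in every sample. That range therefore does not tell such counts apart, and their cause was not tested.

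**Figure D3:**
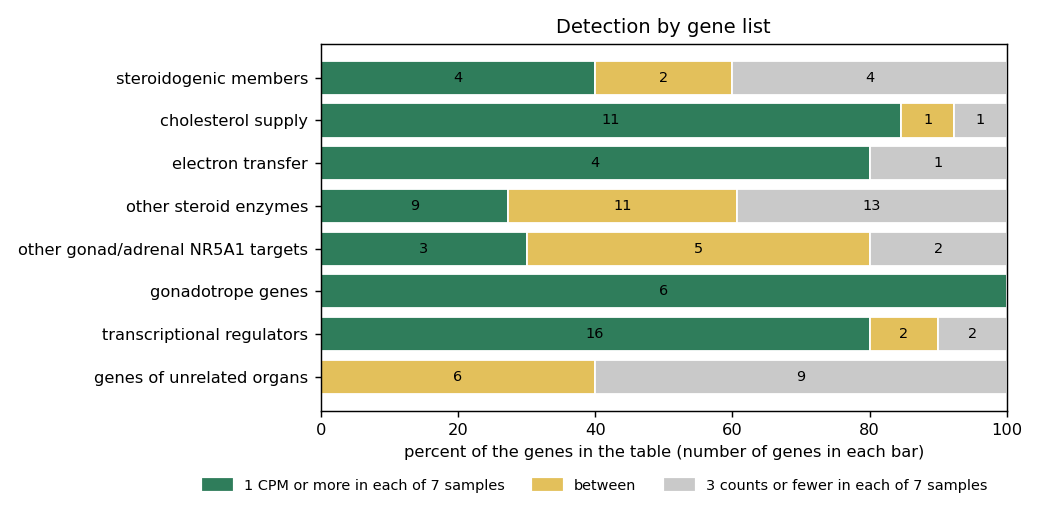
Share of the genes of each list, in percent of those in the table, that were detected (green), low (yellow) or at the floor (grey) in the 7 samples, with the number of genes in each bar. Of the steroidogenic genes 4 of 10 were detected, of cholesterol supply 11 of 13, of gonadotrope genes 6 of 6 and of genes of unrelated organs 0 of 15.

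The general machinery around steroid synthesis was present. Of 13 genes that supply cholesterol, 11 were detected, led by Npc2, which releases cholesterol from lysosomes (388 ± 109 CPM in females, n = 4), Tspo, a protein of the outer mitochondrial membrane (233 ± 50.4), and Soat1, which esterifies cholesterol for storage (89.2 ± 7.33). In male replicates 2 to 4 Npc2 averaged 604 ± 19.9 CPM, Tspo 271 ± 25.1 and Soat1 155 ± 36.5 (SD, n = 3). Soat2 had no counts. Of the 5 electron-transfer genes in the table, 4 were detected, with Cyb5a at 60.6 ± 3.60 RPKM, Por, the donor for P450 enzymes of the endoplasmic reticulum, at 14.0 ± 6.63 RPKM and Fdxr, the reductase that feeds Fdx1, at 3.77 ± 2.14 RPKM (SD, n = 7). Fdx1l was at 0. With counts summed over loci 5 of these genes met the detection rule, so the 0 of Fdx1l depends on how reads were counted. Whether reads of its locus belong to Fdx1l was not tested.

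Of 33 other steroid-metabolising enzymes in the table, 9 were detected, 11 were low and 13 were at the floor. The most abundant were Hsd17b12, which mainly elongates fatty acids (110 ± 19.9 CPM in females, n = 4), Hsd11b1, which regenerates active glucocorticoid (111 ± 30.2), and Hsd17b10, a mitochondrial dehydrogenase (44.4 ± 4.36). Male replicates 2 to 4 averaged 162 ± 14.2 CPM of Hsd17b12, 87.3 ± 16.7 of Hsd11b1 and 35.6 ± 0.806 of Hsd17b10 (SD, n = 3). At the floor were the adrenal enzymes Cyp11b1 and Cyp11b2, which complete corticosterone and aldosterone, and Hsd17b3, the testicular enzyme that completes testosterone. None of the 13 tested genes of the list passed the test between the sexes (edgeR's quasi-likelihood test), with 6 at an unadjusted p under 0.05, and 1, Hsd17b11, passed with DESeq2. Of all 20152 entries, 19.9% were at an unadjusted p under 0.05 with edgeR and 11.6% passed with DESeq2.

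Transcriptional regulators of steroidogenic cells were mostly present. Of 20 in the list, 16 were detected, among them Nr5a1 and Nr4a1, an orphan receptor of acute hormone responses (512 ± 97.8 CPM in females, n = 4). Nr4a1 averaged 591 ± 16.8 CPM in male replicates 2 to 4 (SD, n = 3). Gata4 and Wt1, both needed in the developing gonad, were at the floor, and Gata6 and Tcf21 were low.

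The question of whether the sexes differ was put to the 4 detected genes, the only members with enough counts to be tested, over males 2 to 4 and females 1 to 4. Of 20152 entries tested with edgeR's quasi-likelihood test and Benjamini-Hochberg adjustment, 471 passed an adjusted p of 0.05, or 2.34%. None of the 4 steroidogenic genes did, none had an unadjusted p under 0.05 and none passed with DESeq2. The sexes did not overlap in CPM for 0 of the 4, against 22.3% of all entries tested. With 3 samples against 4, the smallest p that the exact permutation test over 35 splits can give is 0.0286.

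Star averaged 15.7 ± 4.50 CPM in females (SD, n = 4) and 10.1 ± 2.65 CPM in males (SD, n = 3). The fold change of Star, males over females on the log2 scale, was -0.66 (SE 0.29, 95% interval -1.35 to 0.02), with an adjusted p of 0.263 by edgeR and an exact two-sided permutation p of 0.114. The interval holds no difference as well as a level in males well below that in females, so these samples do not settle it. Over 15 alternatives the log2 fold change of Star stayed between -0.89 and -0.37, with edgeR or DESeq2 adjusted p between 0.144 and 0.789.

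Scarb1 averaged 75.7 ± 16.3 CPM in females (SD, n = 4) and 42.1 ± 30.8 CPM in males (SD, n = 3), a log2 fold change of -0.87 (SE 0.67, 95% interval -2.44 to 0.69) with an adjusted p of 0.540 by edgeR and an exact two-sided permutation p of 0.0571. This estimate rested on male replicate 2. Without it the log2 fold change was -0.36 (SE 0.24), with an edgeR adjusted p of 0.546.

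Fdx1 averaged 32.9 ± 9.14 CPM in females and 44.5 ± 8.71 CPM in males, with a log2 fold change of 0.40 (SE 0.26, 95% interval -0.21 to 1.02), an edgeR adjusted p of 0.464 and an exact two-sided permutation p of 0.2. Srd5a1 averaged 5.92 ± 2.57 CPM in females and 6.99 ± 0.316 CPM in males, with a log2 fold change of 0.21 (SE 0.36, 95% interval -0.64 to 1.05), an edgeR adjusted p of 0.816 and an exact two-sided permutation p of 0.429. With library size in place of TMM scaling the value of Srd5a1 was -0.018, so it has no settled direction.

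**Figure D4:**
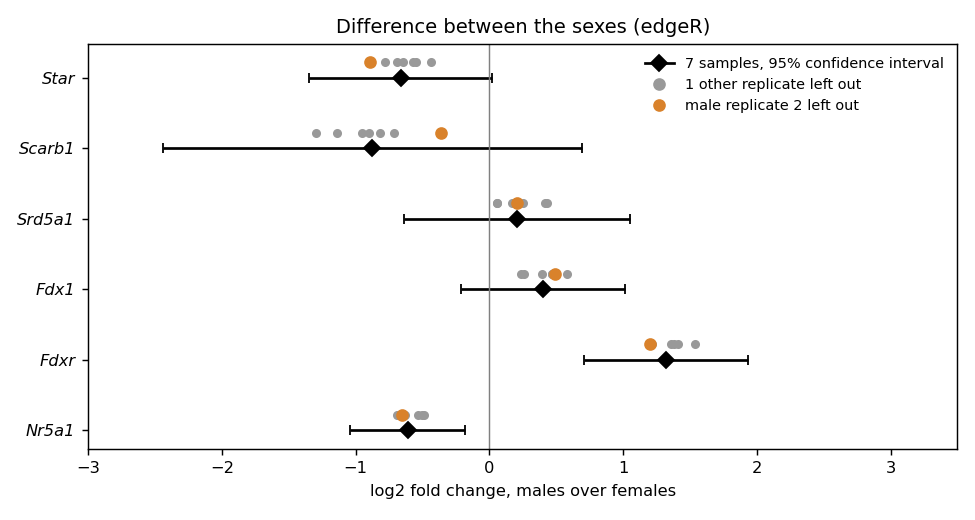
Log2 fold change of males over females from edgeR for the 4 steroidogenic genes, for Fdxr and for Nr5a1; diamonds with bars give the value and 95% confidence interval over 7 samples, grey points the value with 1 replicate left out and orange points that without male replicate 2. The intervals of the 4 steroidogenic genes include 0, and that of Scarb1 (-2.44 to 0.69) is the widest of the 6.

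Fdxr, a partner of Fdx1, averaged 6.33 ± 1.12 CPM in females (SD, n = 4) and 16.2 ± 4.67 CPM in males (SD, n = 3) with no overlap, a log2 fold change of 1.32 (SE 0.26) with an edgeR adjusted p of 0.0525, and it passed with DESeq2 (adjusted p = 0.000441). Male replicate 1 had 23.4 CPM of Fdxr. H6pd, which makes NADPH in the endoplasmic reticulum, had a log2 fold change of -0.76 (SE 0.17, edgeR adjusted p = 0.0691) and also passed with DESeq2. None of the 4 electron-transfer genes tested passed with edgeR, with 2 at an unadjusted p under 0.05. None of the 12 genes of cholesterol supply tested passed with edgeR, with 4 at an unadjusted p under 0.05 (Stard5, Soat1, Lipa and Npc2), all with higher values in males, of which Stard5, Soat1 and Lipa passed with DESeq2. The shares of all entries, given above, were 19.9% and 11.6%.

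In the remaining lists 4 of 26 genes tested passed, against 2.34% of all entries. Gata2, a zinc finger factor of gonadotropes and thyrotropes, was higher in males, at 248 ± 59.7 CPM (n = 3) against 65.6 ± 1.90 (n = 4), with a log2 fold change of 1.88 (SE 0.17, edgeR adjusted p = 0.00885), and it passed with each of the 7 samples left out in turn. Markers of thyrotropes moved with it, with Tshb, the beta subunit of thyrotropin, at 20.9 to 83.5 CPM in females and 235 to 339 CPM in males (log2 fold change 2.35, SE 0.46, edgeR adjusted p = 0.0525) and Trhr at 0.513 to 2.05 and 2.60 to 5.32 CPM, and their part in the Gata2 difference was not tested. Fshb, the beta subunit of follicle-stimulating hormone, was higher in males (log2 fold change 3.13, SE 0.56, edgeR adjusted p = 0.0449). Sox9 (log2 fold change -1.02, SE 0.18, edgeR adjusted p = 0.0417) and Nr4a2, an orphan receptor (-1.09, SE 0.20, edgeR adjusted p = 0.0460), were higher in females. Leaving out any 1 of the 7 samples ended the calls of Sox9 (edgeR adjusted p 0.0580 to 0.135) and Nr4a2 (0.0573 to 0.149), and that of Fshb was kept only without female replicate 4. With all 8 samples Fshb had a log2 fold change of 2.84 (edgeR adjusted p = 0.143), male replicate 1 being at 5760 CPM and the highest female at 5699 CPM. Sox9 also marks pituitary stem cells, and the sum of Sox2, Sox9 and S100b was 244 to 383 CPM in females and 138 to 173 CPM in males, whose part in the Sox9 difference was not tested. Inha, the alpha subunit of inhibin, averaged 22.0 ± 2.67 CPM in females and 10.5 ± 2.57 CPM in males with no overlap (log2 fold change -1.10, SE 0.22, edgeR adjusted p = 0.0513, DESeq2 adjusted p = 0.000219), but male replicate 1 had 64.4 CPM and with it the log2 fold change was 0.12. In male replicate 1 Nr4a2, at 255 CPM, was above every female and Sox9, at 237 CPM, was inside the female range, and with all 8 samples their log2 fold changes were -0.51 (edgeR adjusted p = 0.748) and -0.69 (edgeR adjusted p = 0.438). Nr5a1 averaged 1068 ± 189 CPM in females and 716 ± 116 CPM in males with no overlap (log2 fold change -0.61, SE 0.18, edgeR adjusted p = 0.130). The somatotrope gene Gh was at 12394 to 57859 CPM in females and 65329 to 142244 CPM in males, also with no overlap (log2 fold change 1.14, SE 0.53, edgeR adjusted p = 0.289), and its part in the Nr5a1 values was not tested.

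The genes whose pattern over the 7 samples was most like that of the 2 most abundant members were found by Pearson's correlation of log2(CPM + 1) among 12638 genes, as a description without a test. For Scarb1 they were Mfn1 (r = 0.996) and Tmem223 (r = 0.996), and both were lowest in male replicate 2, at 1.69 and 64.2 CPM. Without that sample r over the 6 others was 0.932 for Mfn1 and 0.998 for Tmem223. For Fdx1 they were Siae (r = 0.982) and Dennd5b (r = 0.977). The points share their libraries, and they are the highest of 12638 values.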

How the data were processed

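The RNA of 8 samples of sorted EGFP-positive pituitary cells was sequenced from libraries of a low-input kit that does not mark strand. The authors trimmed reads with cutadapt, mapped them to mm10 with STAR and counted them per gene with featureCounts. They deposited raw, unnormalized counts, the unit used here. Of the entries, 28933 are named by an assembled locus, a step that the sources used here do not describe. The members and lists were chosen with earlier results of these data known.

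Counts were scaled to CPM with TMM factors over the 8 samples (edgeR 4.0.16, R 4.3.3) and divided by the length of all exons in GENCODE vM21 (GRCm38, the same build as mm10) for RPKM. Males 2 to 4 were compared with females 1 to 4 by edgeR's quasi-likelihood test after filterByExpr, with Benjamini-Hochberg adjustment, and DESeq2 1.42.0 was the alternative. The procedure was tested on simulated data whose changed genes differed far more than the detected members did. That test therefore does not show whether differences as small as theirs would be found. Exact permutation tests used log2(CPM + 1). All 10 members are named. Of each other list, the text names the genes called between the sexes, the 3 of highest mean CPM and defining genes at the floor, and for the 2 most abundant members the 2 genes most alike. Genes beyond this rule (Fdxr, H6pd, Tshb, Trhr, Stard5, Umod, Sftpc, Hsd17b11, Lipa, Hsd3b7 and the copies of members) were chosen after their values were seen. A gene that the rule names is not reported here.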

Additional observations from a re-analysis of the deposited data

Results flagged for a closer look

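Cyp11a1 stood out in female replicate 3, with 0.215 CPM (7 counts) against 0 in the 3 other females, and in male replicate 2, with 0.315 CPM (8 counts) against 0 in the 3 other males. Cyp17a1 stood out in male replicate 2, with 0.355 CPM (9 counts) against 0 in the 3 other males. In each case 1 sample of 4 lay apart from equal values in the others. With the others at 0, any count stands apart in this way, so the number of such samples cannot be set against the 1 in 20 groups that chance would flag. The cause was not tested.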

How the results depend on the processing

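The number of steroidogenic genes detected was 4, and between 3 (at 5 CPM) and 5 (counts summed over loci) under the alternatives run. None of them was called between the sexes under any alternative. The count of all genes called, 471, was 2329 with DESeq2, 808 with library size alone, 177 without the filter, 67 with all 8 samples and 88 to 171 with 1 replicate left out. With library size alone 16.5% of the calls were higher in males, against 42.0%, all genes had a median of -0.24 (log2), and the value of Srd5a1 was -0.018, and with all 8 samples that of Inha was 0.12. Scarb1 averaged 19.8 RPKM over its longest transcript. With the replicate number as a block 0 genes were called. The labels do not say whether the numbers pair the samples. The correlations of same-numbered samples were -0.0266, -0.00227 and -0.00196, and no male correlated best with its own number. So few samples cannot settle the pairing. Gata2 kept its call under the other alternatives and had an adjusted p of 0.216 under the block. The causes were not tested. For counting error alone, depth limits statements on Hsd3b1, Hsd3b6 and Cyp19a1 to levels above 0.0187 CPM. Rare genes varied more than this, since all 9 counts of Cyp17a1 and all 25 of Lhcgr lay in 1 sample each. For Cyp21a1 reads shared with its pseudogene limit statements further.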

Other observations

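Hsd3b7, a member of the Hsd3b family by name that acts in bile acid synthesis and lies on chromosome 7 at 127800604 to 127803802, was read unevenly. It was at 0, 3.12, 84.6 and 1.99 CPM in female replicates 1 to 4, at 2.80, 17.7 and 17.2 CPM in male replicates 2 to 4 and at 44.6 CPM in male replicate 1. Female replicate 3 alone held 2758 of its 4808 counts.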
